A study of Mus musculus with 14 samples.

Results

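RNA sequencing compared mouse embryonic stem cells grown for 5 days in the medium that holds the primed state of pluripotency with the same cells grown for 5 days in the medium that holds the naive state. The primed medium, called F/A, is serum-free N2B27 with activin A at 20 ng/ml and the fibroblast growth factor bFGF at 12 ng/ml. The naive medium, 2i/LIF, combines leukemia inhibitory factor (LIF) with 2i, which inhibits the kinases MEK and GSK3. The members are all expressed genes in the 4 libraries whose titles name these media, 2 per medium, of the 14 libraries in the series. The same experiment has 6 further libraries, 2 each in serum with LIF (FBS/LIF), with vitamin C at 500 µM added (VitC/LIF) or with L-proline added (L-Pro/LIF), and an earlier experiment has 4 single libraries. The cultures of this experiment were all of 1 C57BL/6 dual reporter line, plated at low density, whose mir-290 locus carries mCherry and whose mir-302 locus carries eGFP. F/A is described as serum-free and names no LIF, while the protocol lists 2i among the additions to serum with LIF, although the titles name only 2i and LIF. LIF, the inhibitors, the added factors and possibly serum therefore differed at once and cannot be told apart. No label states that the 2 replicates were separate cultures. P-values therefore measure the spread between libraries of the same medium, pooled over 5 media, which may be technical.

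Naive pluripotency is the state of the epiblast before implantation. It is held by LIF acting through STAT3, by low MEK and ERK activity, and by inhibition of GSK3, which frees β-catenin to relieve repression by Tcf7l1. Primed pluripotency is the state of the epiblast after implantation, which depends on activin or Nodal acting through SMAD2 and SMAD3 and on FGF acting through ERK, and which stands close to the germ layers of gastrulation. Pou5f1 is expressed in both states, while Esrrb, Klf4 and Zfp42 mark the naive state and Fgf5, Otx2 and Pou3f1 the primed one.

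Levels are given as CPM, counts scaled to the size of the library, after TMM scaling, the first value from replicate 1 and the second from replicate 2. They allow comparison of 1 gene between libraries, not of different genes, since they are not divided by length. Sums over a list likewise serve to compare libraries, and long genes weigh more in them. Differences are log2 fold changes of F/A over 2i/LIF with their standard error (SE), n = 2 libraries per medium. The SE was derived from the F statistic of the test named next, with the spread estimated over all 10 libraries of the 5 media. A gene was called where edgeR's quasi-likelihood test gave a Benjamini-Hochberg adjusted p under 0.05 over all genes tested, and "rose" and "fell" are used for called genes. Mapped fragments were 6937945 and 18424697 for the 2 F/A libraries and 20126845 and 18920832 for the 2i/LIF libraries, so F/A replicate 1 is the least precise.

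Differences moved with gene length in ways that touch small changes. With genes ordered by effective length and cut into 5 classes of 2120, the median log2 fold change was -0.50 in the shortest class (median 837 bases) and 0.64 in the longest (median 5209 bases). F/A replicate 1 differed from F/A replicate 2 in the same direction, by -0.42 in the shortest and 0.32 in the longest class, while the 2i/LIF libraries differed by 0.03 and -0.01. Without F/A replicate 1 the medians were -0.39 and 0.37, and without F/A replicate 2 they were -0.89 and 0.66. A fit with an offset for length in each library, chosen after seeing the data, brought them to -0.03 and 0.08, and its values are given below for the lists it moves most. Length trends between libraries and biological differences in genes of different length cannot be told apart here.

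**Figure D1:**
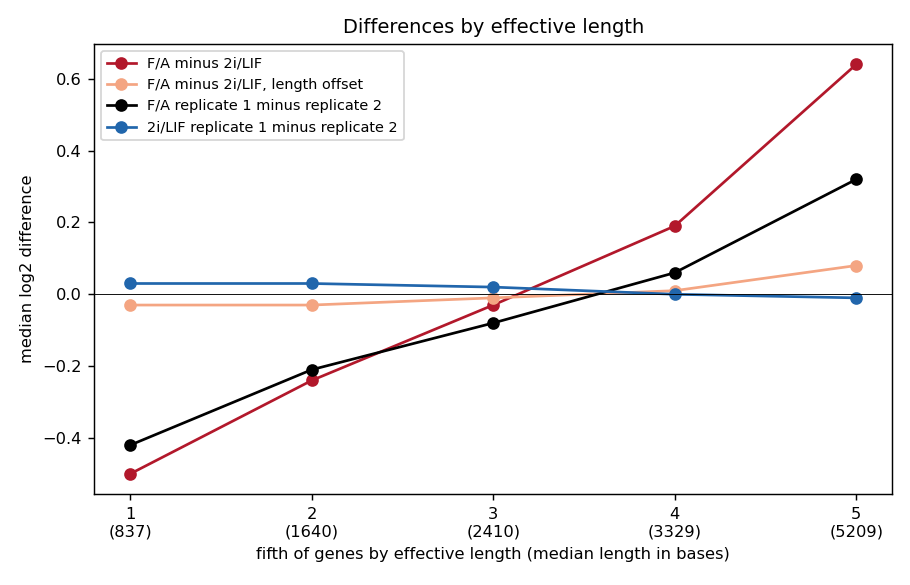
Median log2 difference (vertical axis) over 5 classes of genes ordered by effective length (horizontal axis, median length in bases), for F/A against 2i/LIF with and without the length offset and for the 2 libraries within each medium. The F/A against 2i/LIF medians climb from -0.50 to 0.64, the 2 F/A libraries differ along the same slope, and the 2i/LIF libraries stay between -0.01 and 0.03.

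Of 37991 genes in the files, 16033 passed the filter on low counts and were tested. Of these, 9365 (58.4%) were called, 5130 higher in F/A (32.0% of genes tested) and 4235 lower (26.4%). Counts of list members called below are to be read against these shares, also where the shares are not repeated. The median over all genes tested was 0.08 on the log2 scale. Limma was also run on log2 FPKM, levels per length and mapped fragments, without TMM scaling. Its medians lay higher by similar amounts in the shortest (-0.31 against -0.50) and longest (0.83 against 0.64) length class. With limma the median gene lay 0.18 higher and 65.4% of calls were higher in F/A, against 54.8% here. Without F/A replicate 2, the share was 48.2%. Many of these differences were small, since 3295 called genes had a fitted change within 1 on the log2 scale. Tested against a log2 change of 1 with edgeR's glmTreat, 4023 genes (25.1%) passed, 2624 higher (16.4%) and 1399 lower (8.73%). The libraries of the 2 media did not overlap for 9352 called genes, and for 78.5% of all genes tested.

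**Figure D2:**
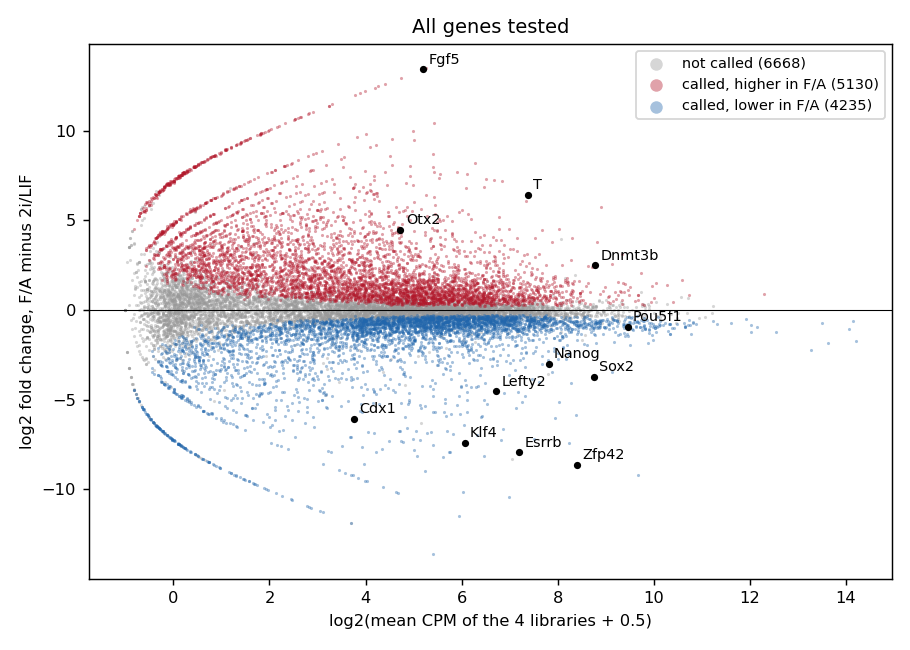
Log2 fold change of F/A over 2i/LIF (vertical axis) against the mean level of the 4 libraries on a log2 scale (horizontal axis), 1 point per gene, coloured by call, with 12 genes named. The curved upper and lower edges are genes without counts in 1 medium: 248 called genes had none in 2i/LIF and 152 had none in F/A.

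The naive pluripotency genes fell nearly as a block. Of 22 list members tested, 21 fell, against 26.4% of all genes tested. None rose, by edgeR, at an unadjusted p under 0.05, or by DESeq2 or limma, and the list's median was -7.11 against 0.08 for all genes. Summed over the list, the level was 146 and 131 CPM in the F/A libraries and 5320 and 5500 CPM in the 2i/LIF libraries.

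Esrrb, an orphan nuclear receptor of the naive network, stood at 1.27 and 1.15 CPM in F/A and 275 and 304 CPM in 2i/LIF. Both F/A libraries were far below both 2i/LIF libraries, a log2 fold change of -7.92 ± 0.29 (SE; edgeR adjusted p = 2.39e-07). Zfp42, the zinc finger gene also known as Rex1, stood at 1.4 and 1.9 CPM against 704 and 645 CPM, a log2 fold change of -8.62 ± 0.27 (edgeR adjusted p = 1.05e-07). The Krüppel-like factor Klf4 had 1.14 and 0.60 CPM in F/A and 123 and 140.2 CPM in 2i/LIF, and its groups did not overlap either (-7.39 ± 0.24, edgeR adjusted p = 1.37e-07). Nanog, the homeobox factor of both states, fell by less, with 48.2 and 51.9 CPM in F/A against 364 and 430 CPM in 2i/LIF, a fall of 2.99 on the log2 scale. Prdm14, which represses primed and DNA methylation genes in naive cells, had 0.127 and 0 CPM in F/A and 42.3 and 38.5 CPM in 2i/LIF. Its single F/A count makes 2i/LIF higher by a ratio of 1128 (95% counting interval 202 to 44580). The remaining falls ran from Gbx2 (-2.29) and Zfp57 (-2.78) to Dppa5a (-9.19), the RNA-binding marker of early pluripotent cells. Klf5 was the single member not called, with 13.2 and 5.25 CPM in F/A and 14.7 and 19.4 CPM in 2i/LIF, where F/A replicate 1 lay close to the 2i/LIF libraries and F/A replicate 2 did not. Without F/A replicate 1 it was called lower (-1.76).

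**Figure D3:**
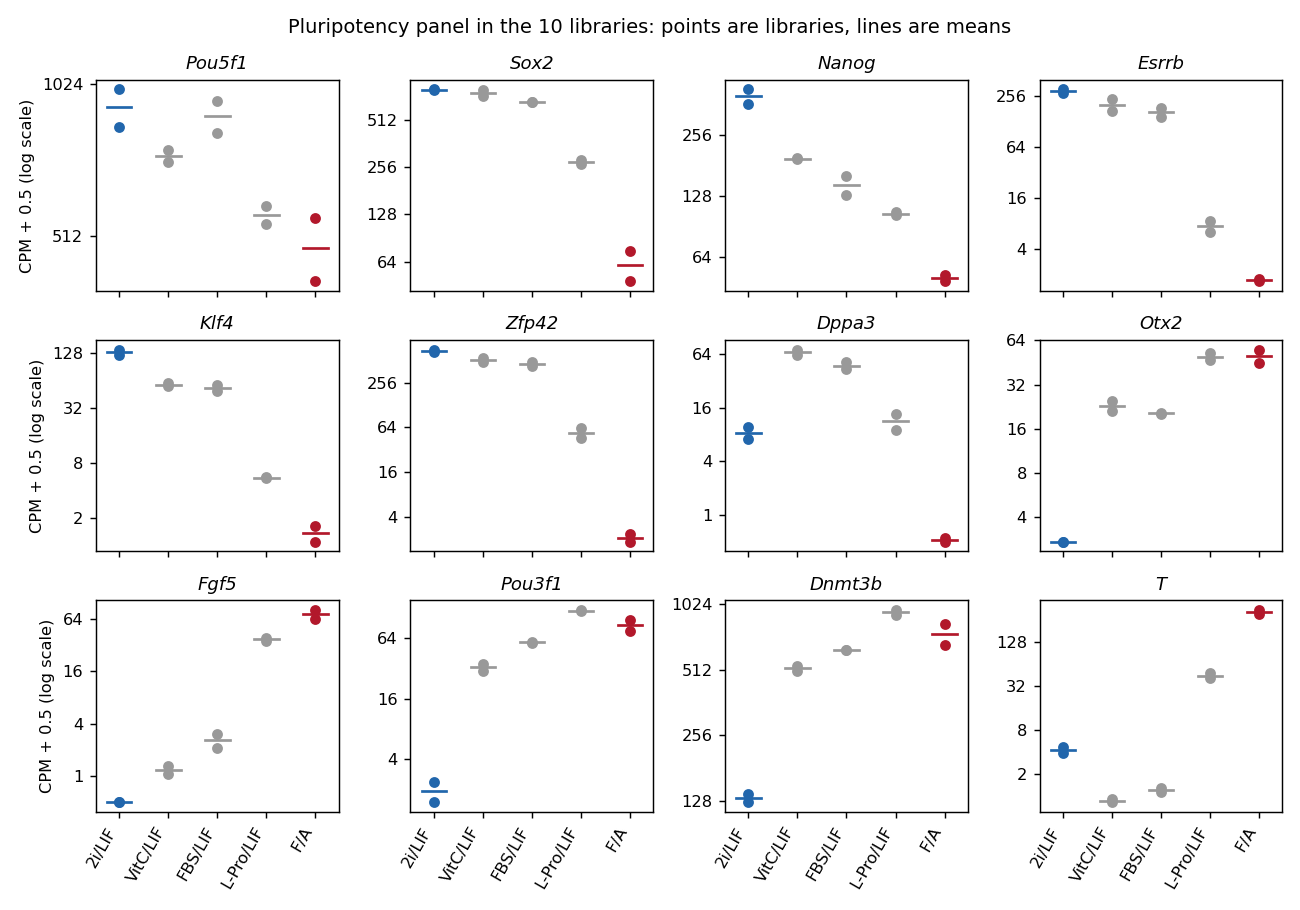
Level of 12 pluripotency genes in each of the 10 libraries of the experiment (vertical axes, CPM plus 0.5 on a log scale, a separate range for each gene), by medium (horizontal axis). Points are libraries and lines are means: Esrrb, Klf4 and Zfp42 step down from 2i/LIF (blue) to F/A (red), Fgf5 and T step up, and Dppa3 is highest in VitC/LIF.

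Core pluripotency genes, which both states share, split. Of 14 tested, 8 fell and 4 rose, against 26.4% and 32.0% of all genes tested, with a median of -0.46. Pou5f1, the POU factor that pluripotent cells need, had 416 and 555 CPM in F/A and 997 and 839.7 CPM in 2i/LIF, a log2 fold change of -0.92 ± 0.17 (SE; edgeR adjusted p = 0.00169). Its partner Sox2 fell much further, from 793 and 802 CPM in 2i/LIF to 47.3 and 73.8 CPM in F/A (-3.71 ± 0.21, edgeR adjusted p = 2.22e-06). Dppa2 and Dppa4, a pair of chromatin factors of early embryos, fell by 7.32 and 4.22, and the ligand Gdf3 by 4.32. In the other direction, Lin28a, which blocks maturation of let-7, rose from 137 and 127 CPM to 652 and 749.8 CPM (2.41 ± 0.13). Sall4 (265 and 208 against 209 and 244 CPM) and L1td1 (364 and 363 against 403 and 477 CPM) were not called, and their libraries lay close together.

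The primed epiblast list moved the other way: 17 of 21 members tested rose, against 32.0% of all genes tested, and 3 fell, with a median of 2.78. Fgf5, the classic marker of the epiblast after implantation, had 81.2 and 63.05 CPM in F/A and no counts in either 2i/LIF library, at least 834-fold higher against a floor of 3 counts over the group (edgeR adjusted p = 9.74e-07). Otx2, a homeobox factor that drives exit from the naive state, had 44.5 and 54.9 CPM against 2.23 and 2.24 CPM, a rise of 4.47 ± 0.17 (SE; edgeR adjusted p = 2.71e-07). Dnmt3b, a de novo DNA methyltransferase, rose from 137 and 126 CPM to 665 and 829 CPM (2.51 ± 0.14), both F/A libraries above both 2i/LIF libraries. Its means in FBS/LIF (631.7 CPM), VitC/LIF (521.5 CPM) and L-Pro/LIF (941.8 CPM) were also above both 2i/LIF libraries. Igfbp3, which binds insulin-like growth factors, reached 321 and 312 CPM from 4.56 and 4.88 CPM (6.07 ± 0.13). Its means were 32.3 CPM in FBS/LIF, 19.8 CPM in VitC/LIF and 295.4 CPM in L-Pro/LIF.

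The SOXB1 factor Sox3 rose as Sox2 fell, from 0.477 and 0.336 CPM to 16.99 and 13.3 CPM (5.19 ± 0.31). Pou3f1 rose by 5.87, but only 2.01% of its estimated count came from fragments that hit no other gene, so its value rests on how shared fragments were divided. On unique hits alone its log2 fold change was 8.11. Estimated levels of Pou3f1 were 74.8 and 94.7 CPM in F/A, with means of 57 CPM in FBS/LIF, 32.1 CPM in VitC/LIF and 117.8 CPM in L-Pro/LIF. The 3 members that fell were the ephrin receptor Epha4 (58.2 and 48.4 against 282 and 256 CPM, -2.34), Foxd3 (-1.86) and Tcf15 (-1.03). Epha4 was lower still in the other media, with means of 19.6 CPM in FBS/LIF and 20.1 CPM in L-Pro/LIF.

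Genes of the primitive streak and mesendoderm had the highest list median, 5.35 (5.17 with the 3 genes without counts in 2i/LIF placed at their bounds). Of 19 tested, 17 rose and 1 fell, where 32.0% of all genes tested rose and 26.4% fell. T (brachyury), the T-box factor of nascent mesoderm, had 308 and 345 CPM in F/A and 3.44 and 4.15 CPM in 2i/LIF, a rise of 6.43 ± 0.17 (SE; edgeR adjusted p = 7.01e-08). Mixl1 and Foxa2, homeobox and forkhead factors of mesendoderm and endoderm, reached 45.3 and 27.9 CPM and 22.8 and 21.1 CPM in F/A, against 0.371 and 0.392 CPM and 0.106 and 0.0561 CPM in 2i/LIF. The LIM homeobox factor Lhx1 had 45.6 and 25.3 CPM in F/A and no counts in 2i/LIF (at least 380.1-fold), and Cer1, a secreted inhibitor of Nodal, BMP and Wnt, had 4.06 and 4.35 CPM and none (at least 52.2-fold). Eomes, the T-box factor upstream of endoderm, was already expressed in 2i/LIF, with 13.8 and 14.3 CPM against 54.9 and 58.3 CPM in F/A (2.01 ± 0.16). In FBS/LIF its mean was 2.96 CPM, below both ends. Cdx1, a caudal homeobox gene, fell from 25.5 and 25.8 CPM to 0.634 and 0.25 CPM (-6.05 ± 0.41, edgeR adjusted p = 6.11e-06).

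Markers of other cell types were measured beside these lists. Over all genes tested, 32.0% rose and 26.4% fell. Of the 16 primitive endoderm genes tested, 11 rose and 1 fell, with a median of 3.44, or 3.06 with genes without counts at their bounds (summed level 932 and 812 CPM in F/A and 419 and 427 CPM in 2i/LIF). The matrix gene Sparc, not called, gave 187 and 188 CPM of this sum in F/A and 177 and 210.5 CPM in 2i/LIF. Foxa2, Gata6 and Sox17 are also on the mesendoderm list. Gata6 had 9.38 and 6.75 CPM in F/A, Sox17 7.61 and 8.2 CPM and Gata4 7.61 and 5.9 CPM, while Hnf4a stayed under 1 CPM in all 4 libraries. Of 6 neuroectoderm genes tested (summed level 396 and 543 CPM in F/A and 28.4 and 32.3 CPM in 2i/LIF), 5 rose and 1 fell. The intermediate filament gene Nes made up most of these sums (316 and 462 CPM against 16.7 and 18.8 CPM). Pax6 had 7.74 and 3.9 CPM in F/A and 0.318 and 0.897 CPM in 2i/LIF, with an FBS/LIF mean of 6.36 CPM. Hes5, Neurog2, Olig3 and Six3 of this list had at most 2 counts in a library and were not tested, and Sox1 was not analysed. Of 11 trophectoderm genes (summed level 161 and 201 CPM in F/A and 64.2 and 62.9 CPM in 2i/LIF), Krt18, Eomes and Krt7 rose and Tfap2c fell. These 3 rises and 1 fall were below the shares over all genes tested. Krt7 lost its call in most settings, and without 2i/LIF replicate 2 its log2 fold change was 0.56, without F/A replicate 1 1.00 and without F/A replicate 2 0.98. Cdx2 was not called (5.71 and 6.1 CPM against 8.48 and 7.29 CPM). The part of each cell type in the culture was not tested, and in these bulk samples more cells of a type and more RNA per cell cannot be told apart.

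**Figure D4:**
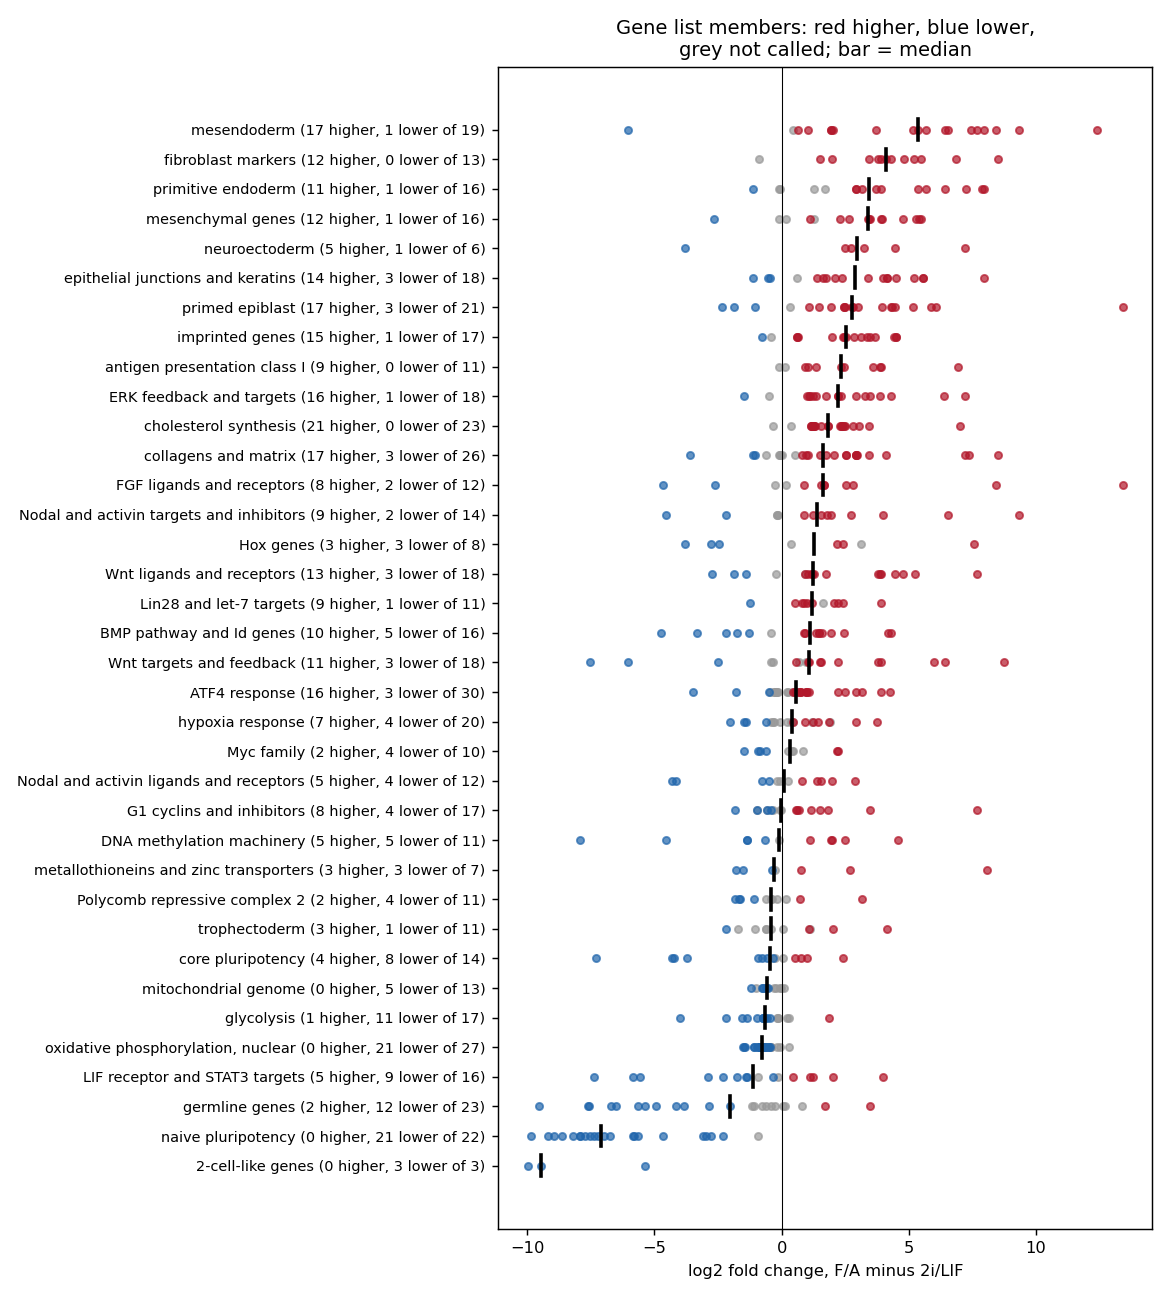
Log2 fold change of F/A over 2i/LIF (horizontal axis) for every tested member of 36 gene lists (rows, ordered by median), coloured by call, with the median as a bar and the counts called beside each name. The medians of the naive, germline and LIF lists lie to the left, with some germline and LIF genes to the right, and the medians of the mesendoderm, fibroblast marker and primitive endoderm lists lie to the right, and the points farthest to the right include Fgf5 and Lhx1, which had no counts in 2i/LIF.

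FGF signals through receptor tyrosine kinases to ERK, which induces its own brakes. Among ligands, Fgf4, the autocrine ligand of naive cells, fell from 229 and 225 CPM to 8.5 and 9.45 CPM (-4.65 ± 0.12, edgeR adjusted p = 6.56e-08), while Fgf8, expressed in the primitive streak, stood at 23.1 and 19.6 CPM in F/A against 0.053 and 0.0561 CPM, a ratio of 378 (95% counting interval 104 to 3128). Among receptors, Fgfr1 rose by 1.66, Fgfr2 by 2.52 and Fgfr3 by 1.66, and Fgfr4 was not called. In all, 8 of 12 ligands, receptors and adaptors rose and 2 fell, against 32.0% and 26.4% of all genes tested. Of 18 ERK feedback and target genes tested, 16 rose and 1 fell, with a median of 2.22.

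Dusp4, a nuclear phosphatase that switches ERK off, had 70.4 and 78.5 CPM in F/A and 0.742 and 1.01 CPM in 2i/LIF, without overlap (6.40 ± 0.18 SE, edgeR adjusted p = 8.2e-08). The cytoplasmic ERK phosphatase Dusp6 had 241 and 276 CPM and 26.6 and 26.5 CPM (3.29 ± 0.12), and the immediate early gene Egr1 40.1 and 25.9 CPM and 1.7 and 1.63 CPM (4.30 ± 0.32). The Sprouty and Spred inhibitors split: Spry4 rose by 2.20, Spred2 by 2.35 and Spry1 by 1.09, while Spry2 was not called (41.97 and 44.2 against 55.9 and 66.1 CPM). Etv5, an ETS factor usually counted as an ERK target, fell from 419.8 and 427 CPM to 169 and 138 CPM (-1.46 ± 0.16, edgeR adjusted p = 8.84e-05), whereas its relative Etv4 rose by 0.99. Etv5 was intermediate in FBS/LIF, at a mean of 238 CPM.

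Activin and Nodal signal through ACVR1B and ACVR2 receptors and SMAD2, SMAD3 and SMAD4, with Lefty proteins as secreted inhibitors. Ligands and receptors split near the shares of all genes tested (32.0% higher, 26.4% lower), 5 rising and 4 falling of 12 tested (median 0.09). Nodal itself was not called, with 59.9 and 69.3 CPM in F/A and 77.2 and 67.99 CPM in 2i/LIF, values that overlapped. Without F/A replicate 2 it was called lower (-0.43). The receptors Acvr2b and Acvr2a rose by 2.00 and 1.55, Smad4 by 1.38 and Smad3 by 0.80, and the coreceptor Tdgf1 fell by 0.77.

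Of 14 targets and inhibitors, 9 rose and 2 fell (median 1.39). Fst (follistatin), which binds and neutralises activin, had 269 and 261 CPM in F/A and 37.4 and 42.6 CPM in 2i/LIF, a rise of 2.73 ± 0.18 (SE; edgeR adjusted p = 5.52e-06). Lefty2 went the other way, with 8.12 and 9.2 CPM in F/A and 208 and 196 CPM in 2i/LIF (-4.53 ± 0.13, edgeR adjusted p = 8.21e-08). Its close relative Lefty1 was not called, 20.2 and 22.6 CPM against 24.8 and 22.7 CPM, although its mean was 188 CPM in FBS/LIF and 456 CPM in L-Pro/LIF, above both ends. Smad7, the inhibitory SMAD, fell by 2.20.

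Wnt ligands keep GSK3 from marking β-catenin for degradation, and the GSK3 inhibitor of 2i acts at the same step. Of 18 ligands and receptors tested, 13 rose and 3 fell (median 1.24). Wnt3, the ligand that starts the primitive streak, had 40.5 and 41.4 CPM in F/A and 0.212 and 0.168 CPM in 2i/LIF (7.70 ± 0.31 SE, edgeR adjusted p = 3.51e-07). Wnt6 had 41.2 and 43.95 CPM and 1.43 and 0.785 CPM, and Wnt8a 16.4 and 16.7 CPM and 0.689 and 0.504 CPM, without overlap. The receptor genes Fzd5 and Fzd10 fell by 2.73 and 1.39, while Fzd2 rose by 3.87.

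Targets of the Wnt pathway did not share 1 direction: of 18 tested, 11 rose, 3 fell and 4 were not called (7 rose without 2i/LIF replicate 1). Axin2, the scaffold gene most often read as a target, had 37.9 and 30.9 CPM in F/A and 40.5 and 45.5 CPM in 2i/LIF and was not called. Both media were above FBS/LIF and VitC/LIF, where its means were 3.89 and 3.71 CPM. Notum, an enzyme that inactivates Wnt ligands, had 0.634 and 0.35 CPM in F/A and 89.9 and 75.6 CPM in 2i/LIF (-7.54 ± 0.35, edgeR adjusted p = 7.99e-07), and Sfrp1, which binds Wnt ligands, fell by 2.52. Rises were led among genes with counts in both media by T and by the zinc finger gene Sp8 (69.9 and 54.4 against 0.848 and 1.06 CPM), and the transcription partner Lef1 rose by 3.80.

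Sp5, a zinc finger gene induced by Wnt, had 39.4 and 38.8 CPM in F/A and 17.2 and 20.4 CPM in 2i/LIF, both above the FBS/LIF mean of 1.72 CPM, and rose by 1.06 ± 0.22 (SE; edgeR adjusted p = 0.00337). Its promoter is shown because it holds the core of the motif bound by TCF and LEF factors, CTTTGAT, searched on both strands (reverse complement ATCAAAG) from 250 bases before to 50 bases after the start. The stretch below is from RefSeq (GRCm38.p6, chr2:70474779-70474865, plus strand), with the motif in capitals, 104 bases before the start.
Sp5: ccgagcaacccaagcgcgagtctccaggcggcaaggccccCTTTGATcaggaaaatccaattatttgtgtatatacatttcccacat
The motif was present for 2 of 12 list members with a promoter in the table, Sp5 and Tnfrsf19, and in 4.29% of 27025 genes with a promoter. For the ERK list the ETS motif CCGGAAGT was found in none of 11 promoters, against 4.31% of genes. For the LIF list the STAT motif TTCNNNGAA was found in 3 of 15, Cish, Sbno2 and Socs3, against 9.55%.

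LIF signals through LIFR and gp130 (Il6st) to STAT3. Of 16 genes of this pathway tested, 9 fell and 5 rose, against 26.4% and 32.0% of all genes tested, with a median of -1.14. The naive genes Klf4, Tfcp2l1 and Gbx2 are among those that fell. Tfcp2l1, a direct STAT3 target of the naive network, had 14.96 and 8.1 CPM in F/A and 637 and 661 CPM in 2i/LIF (-5.84 ± 0.33 SE, edgeR adjusted p = 2.17e-06). Socs3, the feedback inhibitor of the pathway, had 9.26 and 13.2 CPM and 86.3 and 82.4 CPM (-2.88 ± 0.17), and Stat3 33.7 and 27.3 CPM and 105 and 101 CPM (-1.76 ± 0.13). The receptor subunits parted, Lifr falling by 1.35 and Il6st rising by 1.13. Cish had the largest rise of the list (4.00 ± 0.81), at low levels, with 5.07 and 1.55 CPM in F/A and 0.053 and 0.336 CPM in 2i/LIF. The count of rises was 3 without F/A replicate 1, without 2i/LIF replicate 2, and with the length offset.

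BMP genes also split, 10 rising and 5 falling of 16 tested, against 32.0% and 26.4% of all genes tested. Of the Id genes, which encode inhibitors of helix-loop-helix factors, Id2 rose by 2.46 and Id1 by 0.87, while Id3 and Id4 fell by 1.76 and 4.75. Id4 had 0.761 and 0.50 CPM in F/A and 16.4 and 15.8 CPM in 2i/LIF. Id1 stood at 5.83 and 5.3 CPM in F/A and 2.91 and 3.14 CPM in 2i/LIF, both below the FBS/LIF mean of 28.7 CPM.

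Genes of DNA methylation changed in both directions, 5 up and 5 down of 11 tested, against 32.0% and 26.4% of all genes tested. The catalytic genes Dnmt3a and Dnmt3b rose by 1.93 and 2.51, while their cofactor Dnmt3l had 0.507 and 0.40 CPM in F/A and 115 and 98.1 CPM in 2i/LIF (-7.92 ± 0.20 SE, edgeR adjusted p = 6.56e-08). Uhrf1 and Dnmt1, which copy methylation after replication, fell by 1.35 and 0.64. The Tet dioxygenases, which oxidise methylcytosine, differed from each other. Tet2 fell from 272 and 278 CPM to 14.5 and 9.4 CPM (-4.55 ± 0.22), Tet3 rose from 1.43 and 1.79 CPM to 52.1 and 24.7 CPM (4.56 ± 0.48), and Tet1 was not called (298 and 123 against 208 and 247 CPM), its F/A libraries lying on either side of the 2i/LIF libraries. Tet1 was called lower with the length offset (-1.02) and without F/A replicate 1 (-0.95).

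Polycomb repressive complex 2 genes, which set histone H3 lysine methylation on silent genes, were close to the shares over all genes tested (32.0% higher, 26.4% lower), with 4 of 11 lower and 2 higher (6 and 3 with the length offset). The core subunits Eed and Suz12 fell by 1.66 and 1.10 and the accessory subunit Mtf2 by 1.85, while the enzyme gene Ezh2 rose by 0.71. Phf19 had the largest change of the list, a rise of 3.15 ± 0.23 at low levels. It had 4.19 and 5.0 CPM in F/A and 0.583 and 0.448 CPM in 2i/LIF, below its FBS/LIF mean of 13.5 CPM. The count of rises was 1 without either 2i/LIF library, and 7 fell with DESeq2. Mtf2 had 195 and 189.8 CPM in F/A and 713 and 670.1 CPM in 2i/LIF, and Eed 68.1 and 92.5 CPM and 242 and 268 CPM.

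Germline genes, many of which are silenced by promoter methylation in somatic cells, fell in 12 of 23 cases and rose in 2, with a median of -2.03. Hsf2bp, a meiotic recombination gene, had 0.507 and 0.45 CPM in F/A and 50.8 and 50 CPM in 2i/LIF (-6.73 ± 0.21 SE, edgeR adjusted p = 1.15e-07). Hormad1, a protein of meiotic chromosome axes, had 0.127 and 0 CPM and 8.96 and 7.85 CPM, a ratio of 235 (95% counting interval 41.8 to 9300) in favour of 2i/LIF. Dazl, an RNA-binding germ cell factor, had 0.254 and 0.45 CPM and 11.8 and 11.9 CPM (-4.92 ± 0.26). Stra8, the retinoic acid target at meiotic entry, was near its floor in both media, with 0.583 and 0.504 CPM in 2i/LIF against a mean of 25 CPM in VitC/LIF. The 2 genes that rose were Tdrd1 (2.16 and 2.25 against 0.265 and 0.112 CPM) and Sycp2 (0.761 and 0.85 against 0.159 and 0.336 CPM), and 1 rose without 2i/LIF replicate 1. Ddx4 and Zcwpw1 were not called, and their libraries lay close together.

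The promoters of Hormad1 and Hsf2bp are shown because they hold the core E2F motif GCGGGAA (reverse complement TTCCCGC), known from promoters of germline genes. The stretches are from RefSeq (GRCm38.p6), Hormad1 at chr3:95559542-95559628, plus strand, and Hsf2bp at chr17:32034512-32034598, minus strand, with the motif in capitals. It starts 95 and 97 bases before the 2 annotated starts of Hormad1 and 50 bases before that of Hsf2bp.
Hormad1: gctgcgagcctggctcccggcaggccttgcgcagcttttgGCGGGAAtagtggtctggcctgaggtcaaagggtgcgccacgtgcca
Hsf2bp: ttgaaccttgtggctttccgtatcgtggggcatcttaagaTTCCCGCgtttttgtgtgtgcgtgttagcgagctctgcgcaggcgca
The motif was found for 8 of the 24 germline genes with a promoter in the table (33.3%) and for 5.29% of all 27025 genes. Of those 8, Ddx4, Sycp3, Smc1b and Slc25a31 were not called. A match describes the letters in the window and shows no binding.

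Imprinted genes, expressed from 1 parental allele, mostly rose: 15 of 17 did and 1 fell, with a median of 2.54. Peg3, a zinc finger gene expressed from the paternal allele, had 621 and 376 CPM in F/A and 21.8 and 21.97 CPM in 2i/LIF (4.51 ± 0.25 SE, edgeR adjusted p = 2.05e-06). Grb10, a growth factor receptor adaptor, had 349 and 348 CPM and 36.3 and 43.3 CPM (3.13 ± 0.18), and the cell cycle inhibitor Cdkn1c 21.3 and 24.7 CPM and 2.38 and 1.74 CPM (3.48 ± 0.18). For Grb10 and Cdkn1c the FBS/LIF means, 455 and 64.95 CPM, were above both F/A libraries, while for Peg3 the FBS/LIF mean, 81.9 CPM, lay between the ends. Plagl1 fell by 0.77, but the count of falls was 0 when any 1 of the 4 libraries was left out. The noncoding RNA H19 was not called (1.27 and 1.5 against 1.8 and 1.91 CPM).

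Most genes of both the epithelial and the mesenchymal list rose. Of 18 junction, keratin and splicing genes, 14 rose and 3 fell, with a median of 2.90. Esrp1, a splicing regulator of epithelial cells, had 96.9 and 70.8 CPM in F/A and 0.212 and 0.448 CPM in 2i/LIF (7.97 ± 0.30 SE, edgeR adjusted p = 2.55e-07). Its means in FBS/LIF (60.7 CPM), VitC/LIF (53.2 CPM) and L-Pro/LIF (68.2 CPM) lay close to F/A, so 2i/LIF stood apart from the other media. The claudin genes Cldn6 and Cldn7 had 90.5 and 108 CPM and 56.7 and 52.5 CPM in F/A against 1.91 and 3.42 CPM and 1.48 and 0.785 CPM. Cdh1 (E-cadherin) rose from 95.8 and 123 CPM to 466 and 272 CPM (1.75 ± 0.30). In L-Pro/LIF the means of Krt18 (207 CPM) and Cldn6 (163 CPM) were above F/A.

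Of 16 mesenchymal genes, 12 rose and 1, Zeb1, fell, with a median of 3.41 (14 rose and 2 fell with the length offset). Cdh2 (N-cadherin) had 141 and 73.95 CPM in F/A and 6.83 and 7.06 CPM in 2i/LIF (3.94 ± 0.36), and Zeb2, a repressor of Cdh1, 40.2 and 25.6 CPM and 0.954 and 0.56 CPM (5.42 ± 0.43). Almost none of the Zeb1 estimate came from unique hits (0.208%), so its direction is not read here. Snai1 was not called and stayed near 1 CPM. Fn1 (fibronectin) was not called, with 524 and 192 CPM in the 2 F/A libraries on either side of 391 and 380.4 CPM in 2i/LIF. Without F/A replicate 1 it was called lower (-1.07).

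Of 13 fibroblast markers tested, 12 rose. None fell in the edgeR fit, with DESeq2 or with limma, while 1 was lower at an unadjusted p under 0.05. With the length offset 11 rose and 1 fell, and without F/A replicate 1 the count of falls was also 1. The list sum was 158 and 185 CPM in F/A and 11.9 and 10.8 CPM in 2i/LIF. Tagln alone gave 99.8 and 138 CPM of the F/A sum, and its FBS/LIF mean was 99.9 CPM. The defining collagen genes were low: Col1a1 had 2.79 and 1.4 CPM in F/A, Col1a2 2.79 and 2.2 CPM, and Col3a1 2.41 and 2.35 CPM in F/A and no counts in 2i/LIF. The part of fibroblasts in these results was not tested. Among 26 collagens, laminins and integrins, 17 rose and 3 fell. The basement membrane genes parted, Col4a1 rising from 26.3 and 20.96 CPM to 184 and 179 CPM (2.94 ± 0.25) and Nid1 falling from 222 and 247 CPM to 26.8 and 12.2 CPM (-3.62 ± 0.33). With the length offset 13 rose and 6 fell in this list, whose members are long (median effective length 5267 bases), and without F/A replicate 1 the count of falls was 5.

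Sterol synthesis was the metabolic list with the most uniform direction: 21 of 23 genes rose. None fell by edgeR, at an unadjusted p under 0.05, or by DESeq2 or limma, and the median was 1.81. Hsd17b7 had 103 and 102 CPM in F/A and 10.2 and 8.97 CPM in 2i/LIF (3.42 ± 0.13 SE, edgeR adjusted p = 2.81e-07). Cyp51, the lanosterol demethylase, had 503 and 584 CPM and 78.4 and 76.8 CPM (2.81 ± 0.14). For both genes the F/A libraries lay far above the 2i/LIF libraries. Ebp and Tm7sf2 were not called, and Ebp was called lower without F/A replicate 2 (-0.78). The FBS/LIF mean of Cyp51, 84.2 CPM, lay near 2i/LIF, and F/A is the only one of these 5 media described as serum-free. The part of serum in this difference was not tested.

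Most nuclear oxidative phosphorylation genes were lower by small amounts, and fewer so with the length offset. Of 27 nuclear oxidative phosphorylation genes, 21 fell, with a median of -0.78. Cox5a, a subunit of cytochrome c oxidase, had 56.9 and 73.95 CPM in F/A and 182 and 193 CPM in 2i/LIF (-1.52 ± 0.14 SE, edgeR adjusted p = 2.85e-05). These genes are short (median effective length 917 bases), and F/A replicate 1 was the lower of the F/A libraries for them by a median of -0.49. With the length offset 13 fell and the median was -0.27, with limma on log2 FPKM 10 fell, and without 2i/LIF replicate 1 the count was 11. None rose by edgeR, at an unadjusted p under 0.05 or by DESeq2, and 1 rose by limma and without F/A replicate 1. Of the 13 mitochondrially encoded genes 5 fell, led in size by mt-Co1 (2509 and 2527 against 5643 and 5932 CPM, -1.20), while 2 fell without 2i/LIF replicate 2, and with the length offset 1 fell and 1 rose.

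Glycolysis genes fell in 11 of 17 cases and rose in 1 (6 fell with limma on log2 FPKM and 7 without 2i/LIF replicate 1, and 2 rose without F/A replicate 2). The platelet isoform of phosphofructokinase, Pfkp, had 23.5 and 22.9 CPM in F/A and 383 and 354 CPM in 2i/LIF (-3.99 ± 0.14 SE, edgeR adjusted p = 1.93e-07), while its isozymes Pfkl and Pfkm were not called. Hk1 fell by 2.20, and the lactate exporter Slc16a3 rose from 56.7 and 44.5 CPM to 157 and 215 CPM (1.88 ± 0.18).

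Of 17 G1 cyclin and inhibitor genes, 8 rose and 4 fell, against 32.0% and 26.4% of all genes tested. The D cyclins, which activate Cdk4 and Cdk6, went apart. Ccnd2 had 107 and 63.1 CPM in F/A and 0.424 and 0.392 CPM in 2i/LIF (7.67 ± 0.59 SE, edgeR adjusted p = 1.12e-05), Ccnd3 fell from 132 and 143 CPM to 41.97 and 35.2 CPM (-1.84 ± 0.15), and Ccnd1 rose by 0.58. The count of rises was 4 without either 2i/LIF library and 5 without F/A replicate 2, where 7 fell.

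Extremes were ranked among called genes without overlap, at a mean of at least 4 on the log2 CPM scale in the higher medium. Predicted genes, pseudogenes and genes with under 50% of the estimate from unique hits were left out. The genes with the highest fitted changes had no counts in 2i/LIF and are given as bounds. Besides Fgf5 and Lhx1 they were the protocadherin Pcdh7 (94.1 and 57.1 CPM in F/A, at least 827-fold), the integrin subunit Itgb8 (64.2 and 40.2 CPM, at least 575-fold), and the apelin receptor Aplnr (33.7 and 28.1 CPM, at least 363-fold), which marks mesoderm. The leukotriene receptor Cysltr1, the atypical cadherin Fat3, the Wnt enhancer Rspo3, the forkhead gene Foxb1 and the protocadherin Pcdh11x followed, with 29.3 and 28.1 CPM for Cysltr1 and 21.7 and 15.9 CPM for Rspo3.

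At the other end, Calcoco2, an autophagy receptor, had 0.254 and 0.15 CPM in F/A and 260.1 and 247 CPM in 2i/LIF (-10.40 ± 0.24 SE, edgeR adjusted p = 6.31e-08). Elobl and the keratin gene Krt42 had no counts in F/A, against 29.1 and 20.5 CPM and 17.9 and 14.6 CPM in 2i/LIF (at least 232-fold and 151-fold lower). The oocyte gene Ooep had 0 and 0.050 CPM and 116 and 128 CPM, a ratio of 3396 (95% counting interval 609 to 134200) in favour of 2i/LIF. The germline gene Morc1 had 0.127 and 0.10 CPM and 139 and 118 CPM, a ratio of 1198 (95% counting interval 409.6 to 5810). Rpl39l, Fam25c, Triml1, Mymx and Prdm14 completed the 10 lowest under the same filters, each with a single count over the F/A libraries.

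The other 3 media show where each gene lies between the ends. Of the 4023 genes tested as past a log2 change of 1, the mean of VitC/LIF lay between the F/A and 2i/LIF means for 79.8%, that of FBS/LIF for 82.8% and that of L-Pro/LIF for 76.1%. On a scale from 0 (2i/LIF) to 1 (F/A), the median of these genes was 0.287 in VitC/LIF, 0.405 in FBS/LIF and 0.765 in L-Pro/LIF. Of those genes, L-Pro/LIF went beyond F/A for 22.0% and VitC/LIF beyond 2i/LIF for 16.0%. F/A and 2i/LIF were the 2 extremes of all 5 media for 58.9%, against 32.1% of all genes tested. The genes were chosen by the difference between the 2 ends, so this is a description with no test.

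**Figure D5:**
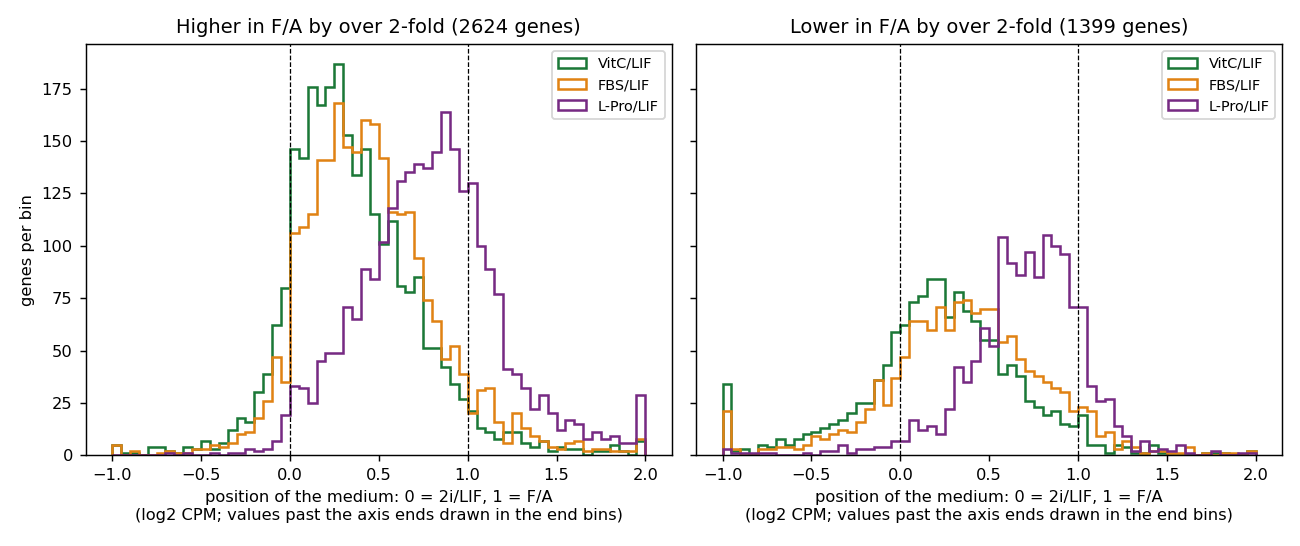
Number of genes (vertical axis) by the position of each other medium between 2i/LIF (0) and F/A (1) on log2 CPM (horizontal axis), for the 2624 genes higher and the 1399 lower in F/A past a log2 change of 1. VitC/LIF and FBS/LIF peak in the lower part of the range and L-Pro/LIF near the F/A end, where many of the genes higher in F/A pass 1.

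Among genes called, at a mean of at least 4 on the log2 CPM scale in the higher medium and without overlap, the 5 whose other media lay farthest outside the range had VitC/LIF and FBS/LIF means below both ends. Nkx1-2, a homeobox gene of the caudal epiblast, had 48.95 and 41.3 CPM in F/A and 29.2 and 28.2 CPM in 2i/LIF, but means of 0.142 CPM in VitC/LIF, 0.279 CPM in FBS/LIF and 2.76 CPM in L-Pro/LIF. Tgfbr3, a TGF-β coreceptor, had 53.4 and 32.8 CPM and 12.5 and 14.7 CPM at the ends and 0.737 CPM in VitC/LIF. Sp5 and Fst, given above, and the zinc finger gene Sall3 shared the pattern. Below that level, Inhbb, an activin subunit, lay above both ends, with 0.38 and 0.25 CPM in F/A and 5.51 and 5.04 CPM in 2i/LIF against a mean of 78.2 CPM in VitC/LIF. Sall3 lost its call without 2i/LIF replicate 1 (1.41), without F/A replicate 1 (0.89) and with the length offset (0.82). Nkx1-2 lost its call without F/A replicate 1 (0.46), without 2i/LIF replicate 2 (0.61) and when libraries were thinned to the shallowest (0.64).

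In the earlier experiment, cells described as positive for both reporters were taken before and after 3 and 5 days in F/A, with Trizol extraction, a start in serum with LIF and vitamin C at 100 µM, and 1 library per time, so there is no replicate check. Of the 2624 genes higher in F/A past a log2 change of 1, 1812 (69.1%) were at least 2-fold higher at day 5 than at day 0 and 28 were at least 2-fold lower. Of 1398 genes lower in F/A with a value there, 1020 (73.0%) were at least 2-fold lower and 10 higher. Among all 16004 genes with a value, 17.5% were 2-fold higher and 12.6% lower.

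Fgf5 had 0.176, 80.2 and 121 CPM at day 0, day 3 and day 5, so most of its level was present by day 3. T had 0.703, 20.7 and 849.9 CPM, with most of its level at day 5. Lefty1 had 44.2, 381 and 85.7 CPM, highest at day 3, and Dppa2 148, 106 and 0.663 CPM, still present at day 3. Klf4 had 223, 3.14 and 27.4 CPM, with more at day 5 than at day 3.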

How the data were processed

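RNA sequencing libraries of the series were processed by the authors. Per the submitters' processing notes, the tools named are TopHat2 2.0.13, Bowtie, HTSeq 0.6.1p1, CASAVA and DESeq, with mouse build mm9 (NCBIM37); which were used for these libraries, and the strand setting, are not given in the sources used here. Per the file headers, the deposited files of this experiment give for each gene a natural log expression level scaled per length and mapped fragments, an effective length, and counts of fragments that hit that gene alone (unique hits). Counts were recovered from exp(level), effective length and mapped fragments and rounded, and make up 98.7 to 99.5% of mapped fragments. The earlier experiment's deposited counts were used only as levels.

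The 10 libraries of the experiment were fitted together with edgeR 4.0.16 in R 4.3.3 (filterByExpr, TMM, quasi-likelihood F test, Benjamini-Hochberg at 0.05), with F/A against 2i/LIF as the contrast and glmTreat against a log2 change of 1. Biological coefficient of variation was 0.238 with 5 residual degrees of freedom. Alternatives were limma 3.58.1 on log2 FPKM computed from the deposited log values without TMM scaling, and DESeq2 1.42.0. Further ones were other filters and scalings, unique hits, thinning, a replicate block, each library left out, and a length offset chosen after seeing the data. The test was checked on simulated data.

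The members and gene lists were chosen with earlier results of these data known. Genes named were the 10 highest and 10 lowest called changes under set filters, up to 4 called and 2 uncalled members of each list, a pluripotency panel, and the 5 whose other media lay farthest outside the range; further list members were named after their values were seen. A few genes that the rule names are not reported here. Promoters are from RefSeq, GRCm38.p6, which is not the files' build, so no other coordinates are given.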

Additional observations from a re-analysis of the deposited data

How the results depend on the processing

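The 9365 calls came to 9344 with DESeq2's size factors in edgeR, 9379 with no filter on low counts, 9061 with a stricter filter, 7476 with the 4 libraries alone, 9665 on unique hits, 8102 on counts thinned to the shallowest library, 9088 with limma on log2 FPKM and 9236 with DESeq2. Leaving out 1 library at a time gave 6938 to 10066. Against a log2 change of 1, 4023 passed. With the length offset, chosen after seeing the data, 9154 genes were called, 8012 of them shared. With the replicate number as a block, 9306 genes were called, 9091 of them shared. Same-numbered F/A and 2i/LIF libraries correlated at 0.0727 in their deviations from their media (0.0064 to 0.686 over all pairs of media, 8 of the 10 pairs over 0.1), and replicate 2 libraries had longer effective lengths in every medium, by 39.4 to 54.2 bases over FBS/LIF replicate 1, where replicate 1 libraries lay at -1 to 7. Numbers thus go with a difference in effective length in every medium, F/A and 2i/LIF included. The low correlation between F/A and 2i/LIF cannot show that these media lack a shared difference between replicates. No label gives a pairing. Of 164 named genes that were called, 13 lost their call in at least 1 setting. The length offset turned the sign of mt-Co2 (0.058) and of Mga (-0.39, not called otherwise); the cause was not tested. In simulated counts, 42 of 100 genes changed by 1 on the log2 scale and 73 of 100 changed by 2 were recovered. There were 12 false calls. Each size was given to 100 of 16033 genes, while 58.4% of genes were called in the data. These rates need not hold for the data, and the share of small changes left uncalled there was not tested.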

Other observations

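Most genes of class I antigen presentation were higher in F/A. Of 11 tested, 9 rose, with a median of 2.33 against 0.08 for all genes, and none fell by edgeR, at an unadjusted p under 0.05, or by DESeq2 or limma. The peptide transporter subunit Tap1 had 37.8 and 40.4 CPM in F/A and 2.91 and 2.41 CPM in 2i/LIF (3.87 ± 0.18 SE, edgeR adjusted p = 8.07e-07), and the heavy chain gene H2-K1 51.7 and 65.4 CPM and 11.6 and 9.98 CPM (2.45 ± 0.19). B2m, the shared light chain, rose by 1.05, and the chaperone Tapbp was not called. In L-Pro/LIF the means of Tap1 and H2-K1 were 39.3 and 88.4 CPM. Zinc genes split. The importer Slc39a8 had 43.6 and 48.4 CPM in F/A and 0.212 and 0.112 CPM in 2i/LIF (8.08 ± 0.33, edgeR adjusted p = 3.7e-07) and Slc39a14 rose by 2.69, while the metallothionein genes Mt1 and Mt2 fell by 1.78 and 1.52. Of 11 genes of the Lin28 and let-7 list, 9 rose and 1 fell (7 and 1 with the length offset), led by Lin28b at 210 and 211 CPM against 13.6 and 14.3 CPM (3.91 ± 0.10).

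Amino acid stress genes of the ATF4 list were more often higher, with 16 of 30 higher and 3 lower (9 without F/A replicate 2). Over all genes tested the shares were 32.0% and 26.4%. Slc7a11, the cystine importer, had 22.2 and 12.7 CPM in F/A and 1.11 and 0.673 CPM in 2i/LIF (4.26 ± 0.42), while Asns, asparagine synthetase, had 228 and 289 CPM and 894 and 884 CPM (-1.78 ± 0.14), above its FBS/LIF mean of 228 CPM in the 2i/LIF libraries. Among 20 hypoxia genes 7 rose and 4 fell (7 without F/A replicate 2), near the 32.0% and 26.4% of all genes tested, with Pfkfb3 rising by 3.74 and the demethylase gene Kdm3a falling by 2.04. In the Myc family, 2 of 10 rose and 4 fell, against 32.0% and 26.4%. Myc had 21.4 and 18.6 CPM in F/A and 3.71 and 4.76 CPM in 2i/LIF (2.24 ± 0.48), Mycl fell by 0.93, and 4 rose without F/A replicate 2. Hox genes stayed low, and only 8 of the 32 in the files passed the filter on low counts. Of those 8, 3 were higher and 3 lower, against 32.0% and 26.4% of all genes tested. Hoxb1 had 1.27 and 1.2 CPM in F/A and no counts in 2i/LIF (at least 14.9-fold). The count of Hox rises was 1 without 2i/LIF replicate 1 or F/A replicate 2. The 3 Zscan4 genes tested, markers of the 2-cell-like state, fell, and Zscan4f had no counts in F/A and 5.3 and 7.96 CPM in 2i/LIF, with 10.7% of its estimate from unique hits. Dppa3, a maternal gene, had 1 count over the F/A libraries and 9.22 and 6.61 CPM in 2i/LIF, below its means of 66.8 CPM in VitC/LIF and 47.2 CPM in FBS/LIF. The 12 hairpin genes of the mir-290 and mir-302 clusters are listed at 0 counts in all 4 libraries, so neither reporter locus can be followed through them. Dicer1 was not called: its values, 221 and 57.6 CPM in F/A and 15.8 and 74.8 CPM in 2i/LIF, differed widely within each medium. On unique hits (1.21) and with limma on log2 FPKM (1.52) it was called higher, and its estimate disagrees with its unique hits, which come to 164% of it.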
